A study of Mus musculus with 6 samples.

Results

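The isoleucine (mt-Ti), glutamine (mt-Tq) and methionine (mt-Tm) tRNA genes of the mouse mitochondrial chromosome stand end to end between the genes of the complex I subunits ND1 (mt-Nd1) and ND2 (mt-Nd2). They were taken by name and position, and are 3 of the 22 tRNA genes and of the 37 genes on the chromosome. Small RNA was sequenced from pancreatic islets of mice kept on a high-fat diet for 14 weeks, with 3 libraries from Mrpp3WT mice, which carry the wild-type gene, and 3 from Mrpp3N434S mice, which carry a substitution in MRPP3. The labels name islets as the RNA source, whereas the description of the series speaks of pancreatic RNA. Every library came from mice on the high-fat diet, so no library on another diet enters the comparison. The values analysed cover the mitochondrial chromosome alone. The genotype could therefore not be checked at the Mrpp3 gene itself, and no marker of islet or other cells could be measured.

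Mitochondrial tRNAs are cut out of long transcripts of either strand that also carry the mRNAs, so that each excision also frees the ends of its neighbours. MRPP3 is the nuclease of mitochondrial RNase P, which cuts at the 5′ end of the tRNA together with MRPP1 and MRPP2; ELAC2 then cuts at the 3′ end, and the CCA tail is added afterwards. MRPP1 and MRPP2 also methylate the purine at position 9 of many mitochondrial tRNAs, a mark that can make reverse transcriptase misread the base or stop beside it. The isoleucine and methionine tRNAs are copied from the forward strand of the chromosome and the glutamine tRNA from the reverse strand. The methionine tRNA serves both the start of translation and elongation in mitochondria.

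The sequences of the 3 genes are shown because the base at position 9, which differs between them, is the base that MRPP1 can methylate when it is a purine. Capitals mark base 9 and the anticodon, counted from the 5′ end of each gene, in DNA letters from GENCODE transcripts on GRCm38. These letters matched the reference letters in the deposited tables at every base.
mt-Ti, chrM:3706-3774, forward strand: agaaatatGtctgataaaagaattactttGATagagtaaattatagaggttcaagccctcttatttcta
mt-Tq, chrM:3772-3842, reverse strand: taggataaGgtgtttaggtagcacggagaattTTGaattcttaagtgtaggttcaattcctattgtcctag
mt-Tm, chrM:3845-3913, forward strand: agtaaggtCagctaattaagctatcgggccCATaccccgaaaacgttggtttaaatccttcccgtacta
The isoleucine and glutamine tRNAs have G at base 9, and so belong to the 5 of 22 tRNA genes with G there, and the methionine tRNA has C, which it shares with 1 other. Genes mt-Ti and mt-Tm are 69 bases long and mt-Tq is 71 bases long. Their G and C content was 27.5% for mt-Ti, 36.6% for mt-Tq and 44.9% for mt-Tm. The last 3 bases of mt-Ti lie opposite the last 3 bases of mt-Tq, and the first 2 bases of mt-Ti lie within the annotated end of mt-Nd1. Gene mt-Nd2 begins directly after mt-Tm, at position 3914.

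The summed depth over the chromosome, which counts every base of every read, was 3156761 to 4337052 in the Mrpp3WT libraries and 5461367 to 10923311 in the Mrpp3N434S libraries, so the mutant libraries were deeper without overlap; the part of this depth in the results was not tested. The smallest chi-square per degree of freedom between any 2 libraries was 3.33, and all 6 were counted as separate samples. Nothing in the labels says more about how the mice were related, so p-values measure the spread between these libraries. In bulk RNA, fewer cells of a type and less RNA per cell cannot be told apart. Intervals and limits from counts cover counting error only.

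The glutamine and methionine tRNAs were among the best covered tRNAs in every library, and the isoleucine tRNA was in the middle of the order. Among the 22 tRNAs, ranked by mean own-strand depth per base, mt-Tm ranked between 2 and 4, mt-Tq between 2 and 5 and mt-Ti between 11 and 12. The cluster held 31.3% ± 3.50 (SD, n = 3) of all tRNA depth in Mrpp3WT and 26.8% ± 5.25 in Mrpp3N434S, with ranges that overlapped. Depth here is the number of read bases over a position on the strand of the gene, and it is a level per base, so genes of unequal length can be compared.

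The methionine tRNA was lower in Mrpp3N434S. Before any scaling, its mean depth was 1782, 805 and 1111 in the Mrpp3WT libraries 1 to 3 and 1245, 815 and 825 in the Mrpp3N434S libraries 1 to 3. After TMM scaling over the mitochondrial genes the same libraries stood at 1736, 1134 and 1691 against 777, 937 and 727. Every scaled mutant value lay below every scaled wild-type value. The fitted log2 difference was -0.90 (SE 0.25), a 1.87-fold lower level, with an edgeR adjusted p of 0.0129. In the same model, 5.88% of the 34 genes tested were called, namely mt-Tm and the small rRNA mt-Rnr1, which was higher. The groups did not overlap in 44.1% of the 34 genes, so the separation of mt-Tm alone is common among these genes. The call rested on single Mrpp3WT libraries: without replicate 1 the difference was -0.80 (edgeR adjusted p = 0.167), and without replicate 3 it was -0.85 (adjusted p = 0.107). Scaled to the summed tRNA genes, which moved the median of all genes by 0.41 on the log2 scale, it was -0.50 (adjusted p = 0.0942), and scaled to the rRNA genes it was -1.57 (adjusted p = 0.00684).

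The glutamine tRNA did not pass the test. Its mean depth before scaling was 1431, 713 and 782 in the Mrpp3WT libraries and 1939, 825 and 594 in the Mrpp3N434S libraries. Scaled, the values were 1393, 1004 and 1192 against 1210, 948 and 523, so that the groups overlapped and Mrpp3N434S replicate 3 was far below the others. The log2 difference was -0.42 (SE 0.26; 95% interval -0.94 to 0.10; edgeR adjusted p = 0.240). Without Mrpp3N434S replicate 1 it was -0.75, with an edgeR adjusted p of 0.0460. Scaled to the library totals, which moved the median of all genes by -0.40, the difference was -0.87 (adjusted p = 0.0470), and scaled to the rRNA genes, which moved it by -0.66, it was -1.14 (adjusted p = 0.0186). Other alternatives brought it toward 0: without Mrpp3N434S replicate 3 it was -0.15 (edgeR adjusted p = 0.661), for maximum depth -0.22 (adjusted p = 0.659), and scaled to the summed tRNA genes -0.013 (adjusted p = 0.961).

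The isoleucine tRNA had nearly the same scaled level in both groups. Its unscaled mean depth was 137, 84.8 and 87.2 in the Mrpp3WT libraries and 183, 123 and 138 in the Mrpp3N434S libraries. The scaled means were 129 ± 7.87 and 126 ± 14.3 (SD, n = 3), and the libraries of the groups were interleaved. The log2 difference was -0.04 (SE 0.25; 95% interval -0.53 to 0.45; edgeR adjusted p = 0.933), and its sign was positive, at 0.36, when scaled to the summed tRNA genes. Scaled to the rRNA genes it was -0.69 (adjusted p = 0.0382).

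The flanking mRNA genes were covered by far fewer bases and, under TMM scaling, leaned the other way. Scaled depth per base was 15.7 ± 2.47 (SD, n = 3) against 22.0 ± 2.51 for mt-Nd1, and 20.8 ± 0.767 against 24.5 ± 2.07 for mt-Nd2, with no overlap in either. Neither passed the test, with log2 differences of 0.55 for mt-Nd1 (edgeR adjusted p = 0.116) and 0.24 for mt-Nd2 (adjusted p = 0.530). As many as 44.1% of the 34 genes tested had groups without overlap. The lean depends on the scaling. Scaled to the summed tRNA genes, both were among 12 genes called higher. Scaling to the rRNA genes called neither and moved the median of all genes by -0.66, a larger move than either difference.

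**Figure D1:**
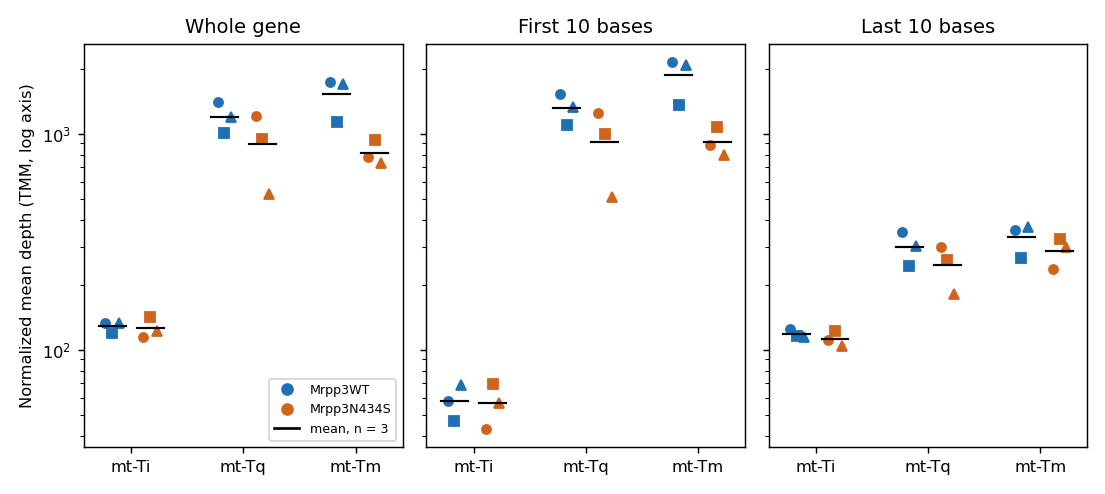
Scaled mean own-strand depth (log axis) of the 3 tRNAs over the whole gene, its first 10 bases and its last 10 bases. Points are libraries (circle, square and triangle for replicates 1, 2 and 3) and bars are means of 3 libraries. The groups separate for mt-Tm over the whole gene and over its first 10 bases, and overlap for its last 10 bases.

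Ratios within the cluster need no scaling between libraries. The ratio of mt-Ti to mt-Tm was 0.0769, 0.105 and 0.0786 in the Mrpp3WT libraries and 0.147, 0.151 and 0.167 in the Mrpp3N434S libraries. All 3 mutant ratios were above all wild-type ratios, with a log2 difference of 0.85 (exact two-sided permutation p = 0.1, which is the smallest that 3 against 3 libraries allow; 0.3 after Benjamini-Hochberg adjustment over 3 ratios). The ratio of mt-Tq to mt-Tm was 0.803, 0.885 and 0.705 against 1.56, 1.01 and 0.720, which overlapped (exact permutation p = 0.3). The ratio of mt-Ti to mt-Tq was 0.0958, 0.119 and 0.112 against 0.0943, 0.150 and 0.232, which also overlapped (exact permutation p = 0.4).

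Over the 6 libraries, the genes whose scaled depth followed that of each tRNA most closely differed. They were mt-Atp8 and mt-Tv for mt-Ti (Pearson r = 0.751 and 0.677), mt-Te and mt-Ta for mt-Tq (r = 0.949 and 0.904), and mt-Tn and mt-Te for mt-Tm (r = 0.859 and 0.850). Among the 3 tRNAs themselves r was 0.669 between mt-Tq and mt-Tm, 0.504 between mt-Ti and mt-Tm and 0.184 between mt-Ti and mt-Tq. These are descriptions over 6 log2 values that share their libraries and scaling.

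The 3 tRNAs were covered in different parts. In the sequences below, capitals mark the bases where own-strand depth was at least 50% of the peak of the gene in all 6 libraries, which shows the best covered part of each tRNA.
mt-Ti: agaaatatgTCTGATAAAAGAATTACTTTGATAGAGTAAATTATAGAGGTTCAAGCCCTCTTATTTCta
mt-Tq: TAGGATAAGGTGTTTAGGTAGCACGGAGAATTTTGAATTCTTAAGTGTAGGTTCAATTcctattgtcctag
mt-Tm: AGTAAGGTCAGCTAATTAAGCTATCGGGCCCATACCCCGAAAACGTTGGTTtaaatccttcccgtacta
The isoleucine tRNA was well covered from base 10 to base 67, that is, from the base after the G at position 9 to near its 3′ end. The glutamine tRNA was well covered from base 1 to base 58 and the methionine tRNA from base 1 to base 51. So coverage of mt-Tq and mt-Tm lay toward the 5′ end, and coverage of mt-Ti lay toward the 3′ end with less over its first 9 bases.

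**Figure D2:**
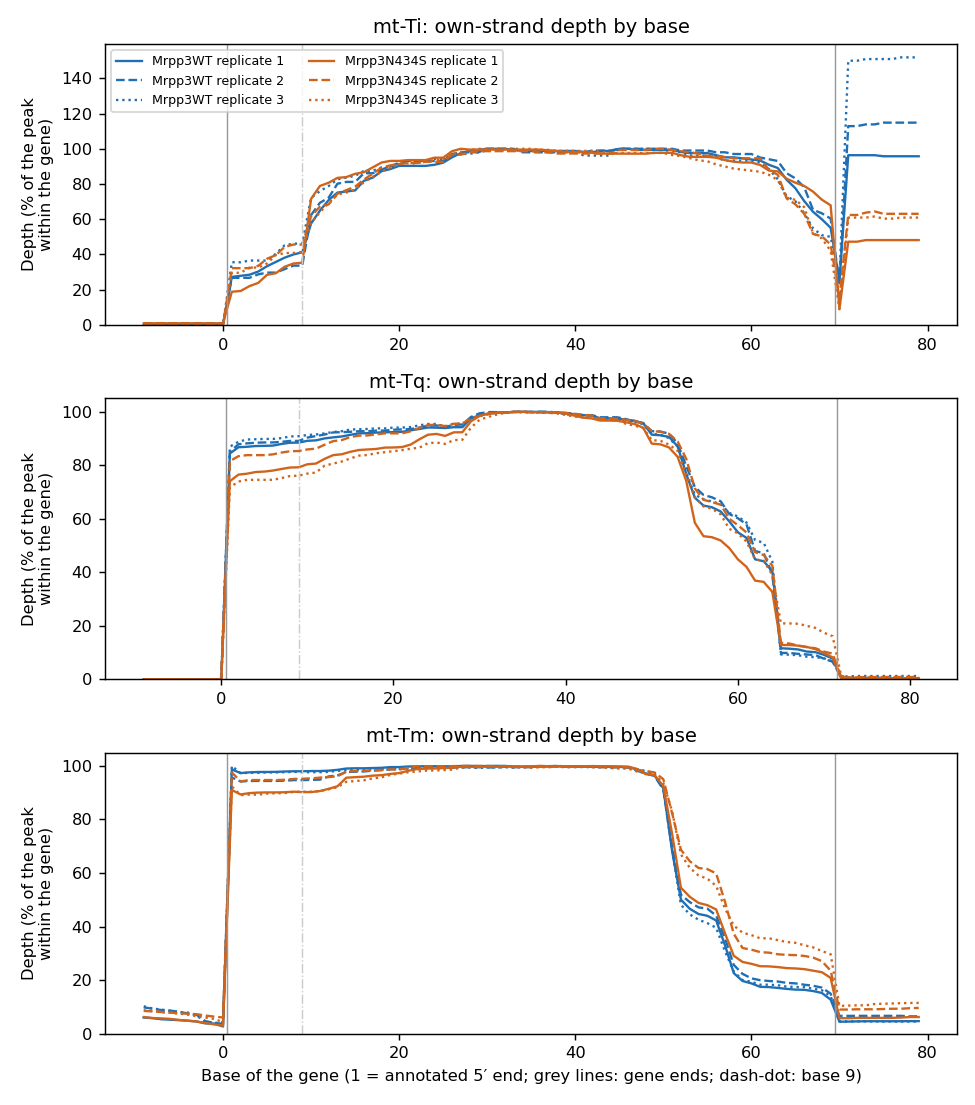
Own-strand depth at each base of the 3 tRNAs and 10 bases beyond, as a percentage of the peak within the gene, 1 line per library. Depth of mt-Ti rises at base 1 and again between bases 9 and 10, depth of mt-Tq and mt-Tm rises to near its peak at base 1 and falls before the 3′ end, and the Mrpp3N434S lines of mt-Tm stay above the Mrpp3WT lines over its last bases.

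At the 5′ end, where RNase P cuts, depth rose sharply at the annotated first base of each gene. For mt-Tq the base before the gene was read 0, 0 and 1 times in the Mrpp3WT libraries and 0, 0 and 1 times in the Mrpp3N434S libraries, while base 1 was read 1511, 750 and 840 times against 1899, 841 and 556 times. In a library with 0 reads, a limit of 3 counts allows up to 0.199% of the depth at base 1 in Mrpp3WT replicate 1 and up to 0.400% in replicate 2, and up to 0.158% and 0.357% in Mrpp3N434S replicates 1 and 2. For mt-Ti the base before the gene was read 0, 1 and 0 against 2, 0 and 0 times, and base 1 was read 45, 27 and 37 against 41, 48 and 50 times. The first 2 bases of mt-Ti are also the last of mt-Nd1. Reads of mt-Nd1 that reach them from upstream would also cover the base before mt-Ti, which was read 0 to 2 times.

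Forward-strand depth was present directly before mt-Tm in every library. Depth per base does not tell reads that cross this border from reads of upstream RNA that end at it. The base before mt-Tm was read 61, 38 and 61 times in the Mrpp3WT libraries and 47, 60 and 43 times in the Mrpp3N434S libraries, against 2213, 971 and 1402 and 1425, 960 and 930 at base 1. The share relative to base 1 was 3.67% ± 0.824 (SD, n = 3) and 4.72% ± 1.48, with overlap. The leader ratio, the mean depth of the 10 bases before the gene over that of the gene, was 0.0809 ± 0.0182 against 0.0790 ± 0.0156 (log2 difference -0.02, SE 0.25, 95% interval -0.52 to 0.48, edgeR adjusted p = 0.999). By edgeR 0% of the 11 tRNAs tested were called for this ratio, none with an unadjusted p below 0.05 (0 of 11), and the same count of 0 calls came from limma and from DESeq2. Scaled depth of mt-Tm was itself lower in Mrpp3N434S, so its like leader ratio does not mean a like leader depth. The leaders of mt-Ti and mt-Tq were below the minimum mean depth of 10 and were not tested.

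Besides its rise at base 1, the depth of mt-Ti stepped up between bases 9 and 10, beside the G at position 9. The gain was 27, 29 and 27 reads in the Mrpp3WT libraries and 79, 24 and 28 in the Mrpp3N434S libraries. As a share of the peak it was 23.7% ± 6.48 against 23.0% ± 11.5 (SD, n = 3), and Mrpp3N434S replicate 1 alone was high at 36.2%. At the same place mt-Tq, which also has G there, rose by 0.777% ± 0.427 and 0.829% ± 0.279 of its peak. In mt-Tm, with C at base 9, the rise was 0.0626% ± 0.0544 and 0.0339% ± 0.0587.

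The shape of the glutamine tRNA at its 5′ end was described by depth at base 1 relative to the peak. Depth at base 1 was 84.4%, 85.0% and 87.0% of the peak in the Mrpp3WT libraries and 74.1%, 81.6% and 71.7% in the Mrpp3N434S libraries. All mutant values were below all wild-type values. These shares were not tested, and they were not computed for tRNAs outside the cluster. In mt-Ti and mt-Tm the groups overlapped for this share. The balance between the ends of mt-Tq, tested below, was not called. Its peak was at base 34 or 35 in all 6 libraries, at the anticodon. Its steepest loss was between bases 64 and 65, where depth fell by 30.96% ± 3.23 of the peak in Mrpp3WT and by 22.2% ± 5.76 in Mrpp3N434S. The groups were barely apart there: the change was -28.83% in Mrpp3WT replicate 1 and -28.81% in Mrpp3N434S replicate 2. This step was picked as the steepest and was not tested.

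The 2 steepest losses of depth in the methionine tRNA followed bases 50 and 51. Between bases 50 and 51 depth fell by 22.4% ± 1.35 of the peak in Mrpp3WT and by 13.7% ± 3.74 in Mrpp3N434S (SD, n = 3), without overlap. Between bases 51 and 52 it fell by 18.9% ± 1.19 and by 16.6% ± 3.25, with overlap. At base 59, depth stood at 19.7%, 22.4% and 20.04% of the peak in the Mrpp3WT libraries and at 26.8%, 32.0% and 37.7% in the Mrpp3N434S libraries. At the last base it was 12.8%, 14.98% and 14.1% against 20.9%, 23.6% and 29.7%. A larger part of the mt-Tm depth thus reached the 3′ end in each mutant library than in any wild-type library.

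The balance of depth between the ends was tested as the ratio of the first 10 to the last 10 bases. For mt-Tm it was 5.95, 5.08 and 5.63 in the Mrpp3WT libraries and 3.73, 3.29 and 2.67 in the Mrpp3N434S libraries, with no overlap. The log2 difference was -0.79 (SE 0.15; edgeR adjusted p = 3.68e-05). The ratio was called for 20% of the 15 tRNAs tested (mt-Tm, mt-Tc and mt-Te), all lower in Mrpp3N434S, and the fitted difference was below 0 in 14 of the 15, with a median of -0.25. The groups did not overlap in 33.3% of the 15. The call for mt-Tm held in all 13 alternatives run, with log2 differences from -0.91 to -0.48 and adjusted p from 1.25e-05 to 0.0404.

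The lower level of mt-Tm was clearest away from its 3′ end. Scaled depth over the first 10 bases was 2138, 1353 and 2088 in the Mrpp3WT libraries and 881, 1076 and 799 in the Mrpp3N434S libraries, with no overlap. Over the last 10 bases it was 359, 266 and 371 against 236, 327 and 299, with overlap. Tested on the last 10 bases of each tRNA, mt-Tm differed by -0.21 on the log2 scale (SE 0.25; edgeR adjusted p = 0.687). The balance of mt-Tm was also taken with bases 31 to 40 in place of the first 10. It was 5.72 ± 0.357 in Mrpp3WT and 3.51 ± 0.589 in Mrpp3N434S (SD, n = 3). The log2 difference was -0.72 (SE 0.13, edgeR adjusted p = 0.0175), so the shift was not limited to the first 10 bases. Both measures were chosen after seeing the data.

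The balance of mt-Tq was 4.34, 4.504 and 4.36 in the Mrpp3WT libraries and 4.19, 3.83 and 2.84 in the Mrpp3N434S libraries. The values did not overlap, but the difference of -0.28 (SE 0.16) did not pass the test (edgeR adjusted p = 0.317). With windows of 5 bases it was -0.74 and passed (adjusted p = 0.00522), whereas with windows of 20 bases it was -0.081 (adjusted p = 0.720). With bases 31 to 40 as the first window it was -0.096 (edgeR adjusted p = 0.852), and without Mrpp3N434S replicate 3 it was -0.13 (adjusted p = 0.540). For mt-Ti, the ratio was 0.463, 0.404 and 0.599 against 0.388, 0.567 and 0.546, below 1 in every library, and the groups overlapped. The log2 difference for mt-Ti was 0.01 (SE 0.28; 95% interval -0.54 to 0.56; edgeR adjusted p = 0.994).

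**Figure D3:**
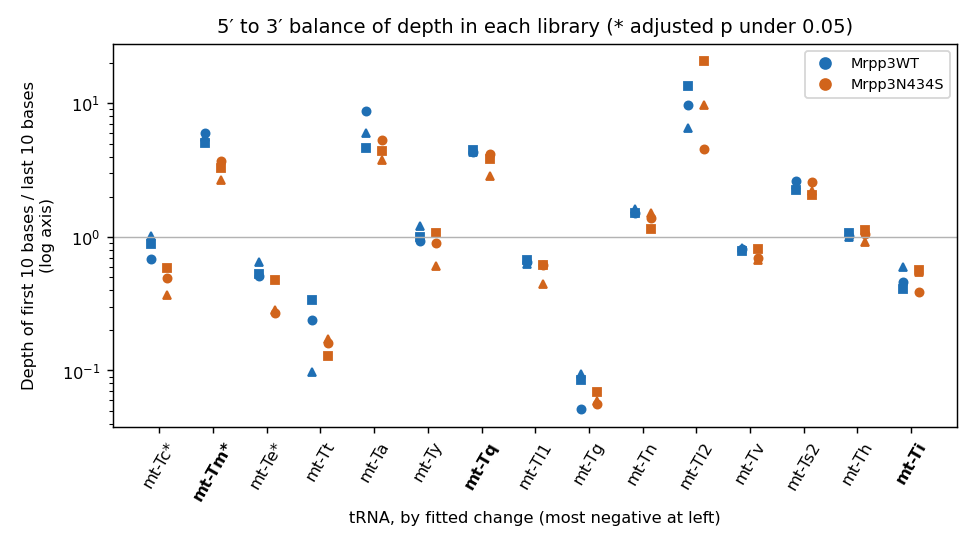
Ratio of depth over the first 10 bases to depth over the last 10 bases (log axis) in each library for the 15 tRNAs tested, ordered by fitted difference, with mt-Ti, mt-Tq and mt-Tm in bold. The Mrpp3N434S points of mt-Tm lie between 2.67 and 3.73 and the Mrpp3WT points between 5.08 and 5.95.

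The 3′ border of mt-Ti, where ELAC2 cuts, faces the 3′ end of mt-Tq on the other strand. The last base of mt-Ti was read 91, 61 and 52 times in the Mrpp3WT libraries and 148, 68 and 71 times in the Mrpp3N434S libraries. The first base after it was read 41, 24 and 27 against 20, 23 and 15 times, lower in every mutant library. One base further, at position 3776, forward-strand depth rose to 159, 114 and 156 against 103, 93 and 103. That forward RNA lies opposite mt-Tq, begins 2 bases after the end of mt-Ti in all 6 libraries, and still had 61, 38 and 61 against 47, 60 and 43 reads at the last base before mt-Tm. The scaled mean depth of this RNA over the span of mt-Tq was 143, 152 and 221 in the Mrpp3WT libraries. In the Mrpp3N434S libraries it was 65.2, 103 and 85.0, with no overlap. These values were scaled by TMM only and were not tested. Among the 34 genes tested for depth, 44.1% had groups without overlap.

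The trailer ratio, the mean depth of the 10 bases after a tRNA over that of the tRNA, was lower for mt-Ti in Mrpp3N434S. It was 1.07, 1.25 and 1.65 in the Mrpp3WT libraries and 0.526, 0.705 and 0.682 in the Mrpp3N434S libraries, without overlap, which was so for 2 of 20 tRNAs (10%). The log2 difference was -1.04 (SE 0.32; edgeR adjusted p = 0.0329), and 10% of 20 tRNAs were called, mt-Ti and mt-Tw. Since the RNA that starts at position 3776 fills 9 of these 10 bases, the ratio mostly compares that RNA with mt-Ti. The call was lost with limma (adjusted p = 0.0967), with DESeq2 (adjusted p = 0.0691) and without 5 of the 6 libraries in turn (adjusted p 0.0628 to 0.295).

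A measure added after seeing the data, the depth of the first base after the tRNA over that of its last base, leaves that RNA out. For mt-Ti it was 45.1%, 39.3% and 51.9% in the Mrpp3WT libraries and 13.5%, 33.8% and 21.1% in the Mrpp3N434S libraries. The groups did not overlap, and the log2 difference of -1.10 (SE 0.36) did not pass the test (edgeR adjusted p = 0.0904); without Mrpp3N434S replicate 2 it did (-1.45, adjusted p = 0.0317). Without Mrpp3N434S replicate 1 it was -0.72 (edgeR adjusted p = 0.166), and without each of the other 4 libraries the adjusted p was 0.171 to 0.272. The groups did not overlap in 35.7% of the 14 tRNAs tested for this measure. Of 14 tRNAs tested by edgeR, 0% were called and 4 were below 0.05 before adjustment, while limma called 0 and DESeq2 called 1.

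**Figure D4:**
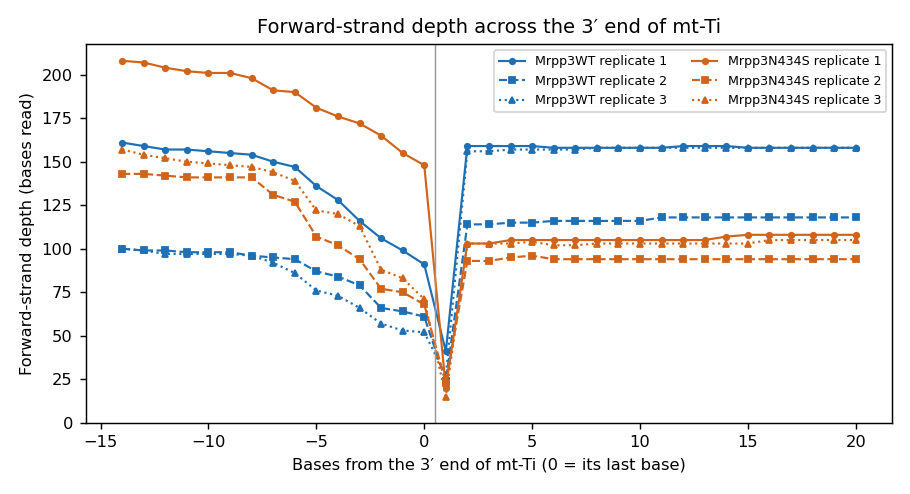
Forward-strand depth, in bases read, over the last 15 bases of mt-Ti and the 20 bases after it, 1 line per library. Depth drops at the first base after the gene in all 6 libraries and rises again at the second, to 114 to 159 in Mrpp3WT and 93 to 103 in Mrpp3N434S.

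Depth continued past the 3′ border of mt-Tm, which is also the 5′ end of the mt-Nd2 mRNA, in every library. Depth per base does not tell reads that cross the border from reads of mt-Nd2 that start there. The first base of mt-Nd2 was read 101, 68 and 65 times in the Mrpp3WT libraries and 91, 89 and 105 times in the Mrpp3N434S libraries, after 286, 152 and 197 against 327, 232 and 299 at the last base of mt-Tm. The trailer ratio of mt-Tm was 0.0669 ± 0.0148 against 0.107 ± 0.0299 (SD, n = 3), with overlap (log2 difference 0.67, SE 0.29, edgeR adjusted p = 0.205). Taken against the last 10 bases of the tRNA the difference was -0.01 (adjusted p = 0.981). At mt-Tq, the first base after the gene was read 9, 6 and 10 against 9, 8 and 10 times, with 139, 58 and 65 against 210, 99 and 125 at its last base. This trailer was below the minimum depth and was not tested.

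Base 9 was read as another base most often in mt-Ti, at low depth. Mismatches there numbered 2 of 68, 3 of 34 and 5 of 48 bases in the Mrpp3WT libraries and 5 of 77, 4 of 68 and 5 of 70 in the Mrpp3N434S libraries. The mean share was 7.39% ± 3.94 against 6.51% ± 0.630 (SD, n = 3), and the exact binomial 95% intervals of single libraries ran from 0.358% to 23.7%. A difference between the groups was not detectable at this depth: with the minimum lowered to 20 bases the log2 difference was -0.07 (95% interval -1.68 to 1.55, edgeR adjusted p = 0.936). Of the 24 mismatches in all libraries, 10 were G9A, 8 were G9T and 6 were G9C, with the reference base first, its place counted from the 5′ end of the gene, then the base read.

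In mt-Tq, base 9 was mismatched in 19 of 1584, 13 of 786 and 9 of 878 bases in the Mrpp3WT libraries and in 24 of 2032, 6 of 880 and 9 of 590 in the Mrpp3N434S libraries. The shares of 1.29% ± 0.325 and 1.13% ± 0.424 (SD, n = 3) overlapped. The log2 difference was -0.20 (SE 0.44; 95% interval -1.07 to 0.67; edgeR adjusted p = 0.738). Here 67 of the 80 mismatches were G9C, unlike the mixed readings in mt-Ti, a difference in pattern that was not tested.

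In mt-Tm, whose base 9 is C, mismatches were 2 of 2198, 0 of 961 and 3 of 1369 bases in the Mrpp3WT libraries and 3 of 1413, 1 of 937 and 2 of 910 in the Mrpp3N434S libraries. The shares of 0.103% ± 0.110 and 0.180% ± 0.0632 overlapped (edgeR adjusted p = 0.702), and base 9 stood at rank 57 among the bases of that gene. The 0 of 961 has an exact upper bound of 0.383%. Across the tRNAs tested at base 9, edgeR called 0% of 10, with 2 below 0.05 before adjustment, and neither limma nor DESeq2 made a call.

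**Figure D5:**
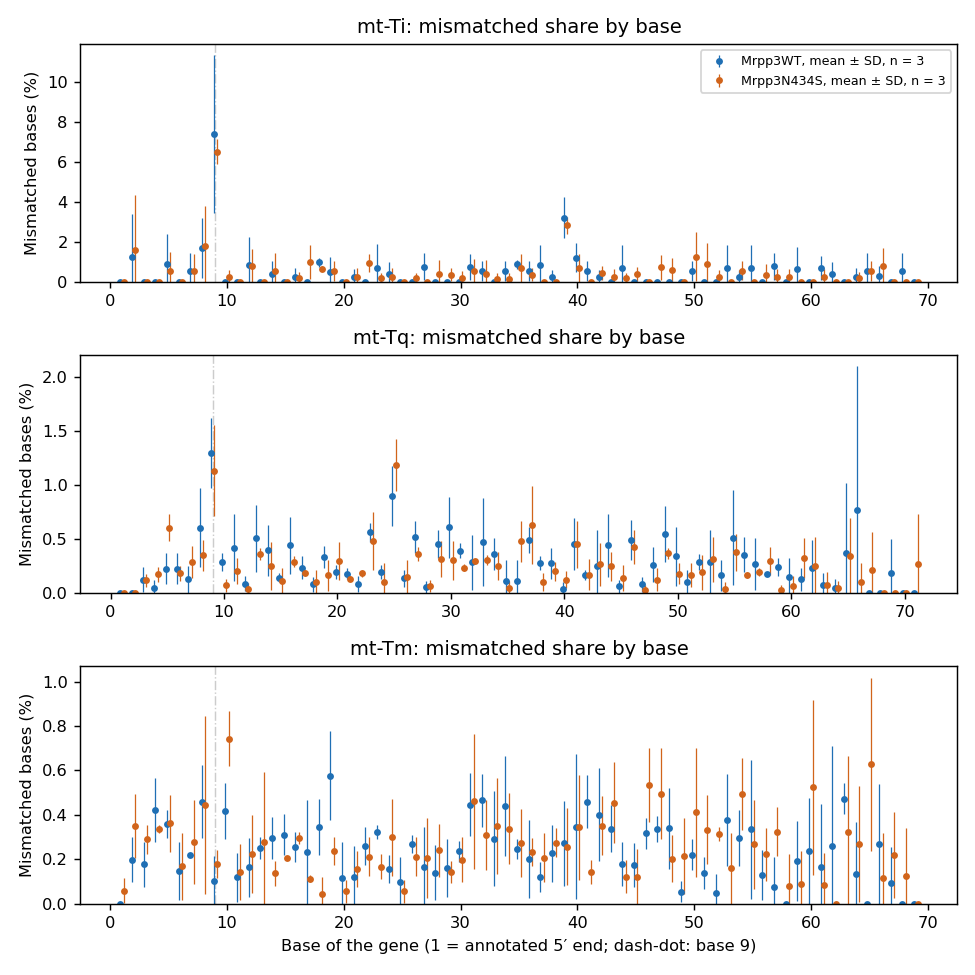
Share of bases that differ from the reference at each base of the 3 tRNAs (mean and SD of 3 libraries per group; the vertical scales differ). Base 9 is the highest point in mt-Ti and mt-Tq and is near the floor in mt-Tm.

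Away from base 9, mt-Ti base 39 was the only site of the cluster that entered the test of sites with a mean mismatch of at least 2%. It was mismatched at 3.68%, 2.02% and 3.92% in the Mrpp3WT libraries and at 3.27%, 2.76% and 2.40% in the Mrpp3N434S libraries, which overlapped (log2 difference -0.22, SE 0.45, edgeR adjusted p = 0.759). Of its 27 mismatches, 26 were A39G. By edgeR 0% of 14 sites were called, with 2 below 0.05 before adjustment, and limma and DESeq2 made no call either.

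The methionine tRNA had its highest mismatch at base 10, next to the C at base 9. The share there was 0.545%, 0.416% and 0.292% in the Mrpp3WT libraries and 0.708%, 0.640% and 0.879% in the Mrpp3N434S libraries, without overlap and under the 2% minimum of the test, so it was not tested. The groups did not overlap at 15.9% of the 69 bases of mt-Tm, 11 in all, with the mutant libraries higher at 5. Of 44 mismatches at that base, 28 were A10G and 14 were A10T. At base 31, the first anticodon base of mt-Tm, named here after its values were seen, the share was 0.446% ± 0.142 against 0.461% ± 0.304, and 28 of 35 mismatches were C31T. In mt-Tq the second highest site, base 25, also named after its values were seen, stood at 0.894% ± 0.275 and 1.18% ± 0.242, and 59 of its 74 mismatches were G25A.

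Averaged over the other bases with a depth of at least 50, the mismatch share did not separate the groups. It was 0.351% ± 0.0249 against 0.337% ± 0.0380 over 60 bases of mt-Ti (exact two-sided permutation p = 0.6). Over 70 bases of mt-Tq it was 0.260% ± 0.0367 against 0.219% ± 0.00609 (exact permutation p = 0.2), and over 68 bases of mt-Tm 0.237% ± 0.0117 against 0.255% ± 0.0201 (exact permutation p = 0.3). Adjusted over the 3 tRNAs, these values were 0.6, 0.45 and 0.45.

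Set among the other tRNAs, mt-Tm was the only one of 19 tested whose depth was called, while 16 of the 19 had a fitted difference below 0, with a median of -0.27 against -0.03 over all 34 genes. Of the forward-strand tRNAs, 9 of 11 tested were below 0 (median -0.26), and of the reverse-strand tRNAs 7 of 8 (median -0.34). Among the tRNAs within 10 bases of another tRNA, to which all 3 of the cluster belong, 12 of 14 were below 0 (median -0.26). Of the 5 tRNAs with G at base 9, 4 were below 0 and 0 were called (median -0.14); both tRNAs with C at base 9 were below 0 and 1, mt-Tm, was called. For the balance between the ends, 8 of 9 forward-strand tRNAs (1 called) and all 6 reverse-strand tRNAs (2 called) were below 0.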

How the data were processed

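Small RNA libraries from islets, 3 of Mrpp3WT and 3 of Mrpp3N434S mice, were made with a small RNA kit, per the labels' protocols. The number of mice behind each library was not among the values used here. The deposited tables hold counts of each base (A, C, G, T) and of uncalled bases (N) per position of the mitochondrial chromosome on each strand, per the file headers. The authors' tables also give the position and reference letter of each row. The submitters' processing notes name Trim Galore, cutadapt, FastQC, STAR and GRCm38.p6; read lengths, mapping settings and the base counter were not given in the sources used here. Depth over both strands reached 8000 at most and came to 7436 or more in each library, so a limit on counted reads may have applied; the 3 tRNAs peaked at 2564 or less. In a table of the whole series, 16 columns of values could not be matched to a sample by name and were not used.

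Own-strand depth was averaged per gene (GENCODE vM21) or window, rounded, and fitted with edgeR 4.0.16 quasi-likelihood tests in R 4.3.3 over all genes or tRNAs with a mean depth of at least 10, with Benjamini-Hochberg adjustment and a threshold of 0.05. Neighbouring bases share reads, so depth is not a number of molecules. Ratios between windows and mismatch shares were fitted with a library effect and a genotype term, the latter at positions with a depth of at least 50. Depth was scaled by TMM. limma 3.58.1, DESeq2 1.42.0, other scalings, windows and minimums, a replicate block and leaving out each library were the alternatives. The scripts were tested on simulated data. Genes named were the 3 tRNAs, mt-Nd1, mt-Nd2 and the 2 genes most correlated with each tRNA; sites named were base 9, those in the site test and the highest of each tRNA. Other genes are named where they are among 3 or fewer calls. The members and lists were chosen with earlier results of these data known.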

Additional observations from a re-analysis of the deposited data

How the results depend on the processing

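The count of genes called for depth, 2 of 34, was 9 with library totals (1 higher, 8 lower), 16 with rRNA scaling (0 higher, 16 lower), 12 with tRNA scaling (12 higher, 0 lower), 6 with no filter on mean depth, 10 for the first 10 bases and 1 for the last 10 bases of each tRNA, and 0 to 11 when 1 library was left out. With a replicate block it was 0, and mt-Tm stood at -0.89 (edgeR adjusted p = 0.0723). The labels do not say whether equal replicate numbers mark pairs. The correlations of same-numbered libraries were -0.03, -0.25 and 0.23, and 1 of 3 numbers matched itself best. These 3 values cannot settle whether the libraries were paired. The log2 difference of mt-Ti was 0.36 with tRNA scaling, 0.0699 with no filter and 0.15 for maximum depth, and -0.20 to 0.0157 with 1 library left out. For the 5′ to 3′ balance, 3 calls became 1 with limma and 1 with bases 31 to 40 as the first window, and 1 to 3 with 1 library left out; mt-Ti was at -0.0644 with windows of 5 bases and -0.0913 to 0.20 with 1 library left out. The leader ratio of mt-Tm was 0.13 with windows of 5 bases and -0.23 to 0.17 with 1 library left out. For the trailer ratio, 2 calls became 1 with limma, 0 with DESeq2 and 1 against the last 10 bases, where mt-Tm was at -0.00928, and 0 to 2 with 1 library left out. For the step at the 3′ end, 0 calls became 1 with DESeq2, 1 with the replicate block and 0 to 2 with 1 library left out. The base 9 difference of mt-Tq ran from -0.33 to 0.0277, and the mean mismatch difference of mt-Ti was 0.136 percentage points at a minimum depth of 100 and -0.0320 to 0.00573 with 1 library left out. The cause was not tested in any case. The first-window, last-window, 3′ end and bases 31 to 40 measures were chosen after seeing the data. In mt-Ti, 34 to 77 bases at base 9 limit what the mismatch comparison can show.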

Other observations

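Bases read where a CCA tail would stand, at the first and second places after each gene, were counted over all 6 libraries. After mt-Ti, C was read in 3 of 150 bases at the first place and 3 of 728 at the second. After mt-Tq, C was read in 5 of 52 and 1 of 41 bases, and after mt-Tm in 6 of 519 and 5 of 521. The third place holds A in the genome after all 3 genes and cannot be used. The second place after mt-Ti is position 3776, where other forward-strand RNA begins, so its 728 bases are not all from mt-Ti. The places after mt-Tm are the first bases of mt-Nd2. Mapping settings were not given, so it is not known if read ends unlike the genome were kept. These counts therefore do not measure how many of the tRNAs carried a tail.

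The share of depth on the own strand differed between the 3 genes. The own strand held 91.0% ± 2.57 (SD, n = 3) of the depth over mt-Ti in Mrpp3WT and 92.2% ± 1.93 in Mrpp3N434S, 87.3% ± 3.19 and 90.4% ± 4.43 over mt-Tq, and 99.99% ± 0.0127 and 99.93% ± 0.0606 over mt-Tm. The groups overlapped for each gene, and these shares were not tested. The shares of mt-Ti and mt-Tq include the 3 bases where these genes lie opposite each other. At those bases of mt-Ti, reverse-strand depth in Mrpp3WT replicate 1 was 139, 164 and 182, against 9 at the base before them. That depth lies on the annotated 3′ end of mt-Tq, so it lowers the share of mt-Ti without being other opposite-strand RNA.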
